A study of Mus musculus with 9 samples.

Results

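Mammalian mitochondria carry their own ribosome, the mitoribosome, which makes the few proteins that the mitochondrial genome encodes, all of them core subunits of the respiratory chain and the ATP synthase. Its RNA comes from the mitochondrial genome, but all of its proteins are encoded in the nucleus, made in the cytosol and imported. Genes of the large subunit are named Mrpl and those of the small subunit Mrps, and the renal cortex, whose proximal tubules reabsorb filtered solutes at a high cost in ATP, is rich in mitochondria. The genes described here are all protein-coding genes of the deposited mRNA values whose symbol begins with Mrpl or Mrps and a number. There are 77 of them, with 145 transcripts, among 21950 genes with 50660 transcripts. Under the unified names of ribosomal proteins, 50 of the 77 encode proteins of the large subunit and 26 proteins of the small subunit. Mrps30 (mL65) and Mrps18a (mL66) carry small-subunit names but sit in the large subunit, and Mrps36 is now regarded as a component of the 2-oxoglutarate dehydrogenase complex. By the prefix of these names, 27 are u (universal, with counterparts in the ribosomes of all domains of life), 19 are b (bacterial, with counterparts in bacteria) and 30 are m (called mitochondria-specific here). Mrps18a (mL66) and Mrps18b (mS40) carry the prefix m although they are related to a bacterial protein.

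Renal cortices of 9 male mice on the C57BL/KsJ (BKS) background gave 1 rRNA-depleted, strand-specific RNA-seq library each. The control group held 3 non-diabetic mice heterozygous for the db mutation of the leptin receptor (db/m), the dbdb group 3 type 2 diabetic mice homozygous for db that received a vehicle, and the dbR group 3 homozygous mice that received rosiglitazone, which activates PPARγ, by gavage. Treatment began at 7 weeks of age and ran for 8 weeks at 20 mg/kg/day, and all cortices were taken at 15 weeks. The db allele is present in all 9 mice, 1 copy in the controls and both copies in the other groups, from birth and in every cell.

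Expression was deposited as FPKM (fragments scaled to transcript length and to the mapped fragments of the library) and summed over the transcripts of each gene. The depth of the libraries, read from the steps between low FPKM values, lay between 0.914 and 1.14 relative to the first control library, and was estimated at 24.5 M to 30.6 M fragments. Of the summed mRNA FPKM, transcripts of the mitochondrial genome made up 28.2% to 30.0% in control, 28.2% to 30.1% in dbdb and 26.9% to 32.8% in dbR libraries. Lepr, the gene that carries the db mutation, had 1.19, 1.05 and 1.23 FPKM in control, 0.652, 0.331 and 0.304 in dbdb and 0.512, 0.3904 and 0.335 in dbR libraries, so all 6 db/db libraries lay below the control libraries. Control replicate 3 was examined after the data were seen. Of the genes above 1 FPKM in both other controls, 10 were under 10% of both in this library (Cmtr1, Exosc5, Hsp90aa1, Rpl12, Rrp1, Rrp12, Rrp15, Rrp1b, Rrp36 and Rrp7a). The same count was not made for the other libraries. None of the 77 was among these 10, and 54 of the 77 were higher in control replicate 3 than in both other controls, with a median ratio to their mean of 1.08. The main results are therefore also given without this library.

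All 77 passed the filter on low values, a mean of at least 0.1 FPKM over the 9 libraries, together with 14537 genes in all. Their median level was 34.9 FPKM against 7.08 FPKM over all genes tested, and 84.8% of the genes tested lay below the median member. Of the 77, 72 had a mean of at least 10 FPKM. The large and the small subunit had near-equal medians, 34.5 FPKM for both, with a wide spread in each. Mrps21 (bS21) stood at the top with 299, 299 and 327 FPKM in control, 288, 272 and 261 in dbdb and 271, 311 and 312 in dbR libraries, and its lowest library lay above the highest library of any other member. Mrpl42 (mL42) came next, with 125, 134 and 143 FPKM in control, 117, 111 and 104 in dbdb and 115, 151 and 130.1 in dbR libraries. Mrpl52 (mL52), the next, had 117, 98.1 and 133 FPKM in control, 124, 107 and 102 in dbdb and 109, 146 and 129 in dbR libraries. The levels of Mrpl42 and Mrpl52 overlapped in all 3 groups, so that their order is not set by these data. At the low end, Mrpl19 (bL19), whose bacterial counterpart lies at the contact between both subunits, had 4.25, 4.11 and 4.47 FPKM in control, 3.75, 4.19 and 4.04 in dbdb and 3.77, 3.89 and 4.04 in dbR libraries. Its highest library lay below the lowest library of the next member, Mrpl57 (mL63), whose values are given with its change. Mrpl35 (bL35), a protein inside the large subunit, was the next above Mrpl57 with 8.09, 8.81 and 9.07 FPKM in control, 7.84, 7.696 and 7.02 in dbdb and 7.53, 8.68 and 9.0 in dbR libraries. From the relative depth and the transcript lengths, the member with the fewest fragments, Mrpl17, had an estimated 197 in its lowest library, and the median member 894. Within a group the median coefficient of variation of a member was 6.09% in the control group, 6.14% in the dbdb group and 7.04% in the dbR group, against 8.56%, 8.86% and 8.36% over all genes tested.

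**Figure D1:**
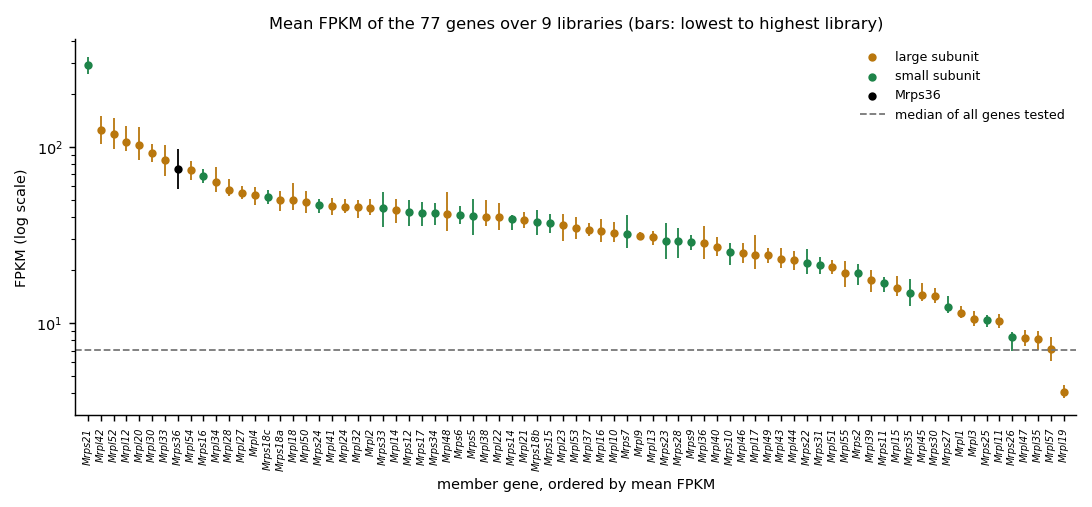
Mean FPKM over the 9 libraries of each of the 77 genes, ordered from high to low on a log axis, with a vertical bar from the lowest to the highest library and colour for the subunit. Mrps21 stands alone at the top with a mean of 293.3 FPKM, Mrpl19 alone at the bottom with 4.06 FPKM, and only Mrpl19 lies below the median of all genes tested (7.08 FPKM, dashed line).

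Many promoters of nuclear genes for mitochondrial proteins hold binding motifs of the factors NRF1 and GABP, an ETS-family factor. RefSeq promoter windows (GRCm38.p6, 250 bases before to 50 bases after the start) matched 68 of the 77 genes by symbol, with 74 windows. Mrpl4, Mrpl13, Mrpl15, Mrpl19, Mrpl38, Mrpl54, Mrps28, Mrps34 and Mrps35 had no entry. An NRF1 motif (GCGCANGCG, either strand) was in 21.6% of the member windows, against 6.25% of all 32851 windows and 11.8% of those of genes tested. The ETS motif (CCGGAAG, either strand) was in 33.8%, against 8.86% and 15.4%. A YY1 motif (AANATGGCG) was in 13.5% of member windows, against 2.38% of all and 4.37% of those of genes tested. In the same order, CCAAT was in 40.5%, against 37.4% and 37.2%, CACGTG in 9.46%, against 7.15% and 9.39%, AAGGTCA in 5.41%, against 4.72% and 3.44%, and TATAAA in 6.76%, against 13.6% and 7.73%. No motif is contained in another, and the median GC content was 58.5% in member windows, 60% in those of genes tested and 52.7% in all. Among the 17 windows of genes called lower in dbdb, 6 held the NRF1 motif, 6 the ETS motif, 7 CCAAT and 2 TATAAA, and none held the YY1 motif, CACGTG or AAGGTCA. The percentages stand for the letters alone, and a match is not a bound site. The stretches that follow show the NRF1 and ETS motifs only, in capitals with 25 bases on each side of the motif named first. They come from members whose level was called different from control, where the stretch lay wholly before the start and outside any annotated exon. They run 5′ to 3′ along the gene's own strand, and a match on the other strand appears as its reverse complement.
Mrpl10, chr11:97041422-97041480, plus strand, NRF1 motif on the other strand: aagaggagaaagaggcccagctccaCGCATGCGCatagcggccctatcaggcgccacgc
Mrpl12, chr11:120484532-120484590, plus strand, NRF1 motif on the other strand: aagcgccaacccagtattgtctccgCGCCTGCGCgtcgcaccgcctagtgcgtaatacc
Mrpl45, chr11:97315571-97315629, plus strand, NRF1 motif: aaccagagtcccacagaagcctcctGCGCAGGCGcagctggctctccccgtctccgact
Mrpl45, chr11:97315653-97315711, plus strand, NRF1 motif: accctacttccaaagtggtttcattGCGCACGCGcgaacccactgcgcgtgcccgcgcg
Mrpl22, chr11:58171586-58171642, plus strand, ETS motif, then an NRF1 motif: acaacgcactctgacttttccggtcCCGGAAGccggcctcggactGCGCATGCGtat
Mrpl43, chr19:45006467-45006523, minus strand, ETS motif: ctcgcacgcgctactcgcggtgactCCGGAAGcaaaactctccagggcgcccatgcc
These 5 genes are those called lower in dbdb (Mrpl10, Mrpl22, Mrpl45), in dbR vs. control (Mrpl12, Mrpl43), or, for Mrpl10 and Mrpl45, in both. The windows of Mrpl23 and Mrps6, which were higher, held none of the 7 motifs, as did those of Mrpl49, Mrps2, Mrps5 and Mrps7, which were lower.

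The first question was whether the diabetic cortex differed from the control cortex in these transcripts. With FPKM as deposited, 18 of the 77 were lower in dbdb mice than in controls and 2 were higher (limma on log2(FPKM + 0.1), adjusted p under 0.05 over all genes tested), whereas 3 were lower (Mrpl18, Mrpl50 and Mrps33) and 8 higher when the libraries were scaled to the same sum without transcripts of the mitochondrial genome. These 8 were Mrpl23, Mrpl33, Mrpl37, Mrps6, Mrps16, Mrps24, Mrps25 and Mrps34. Of all 14537 genes tested, 13.4% were lower and 13.1% higher as deposited, and 6.65% lower and 24.01% higher without mitochondrial transcripts. As deposited, the share of members called lower, 23.4%, was above the background and the share called higher, 2.60%, below it. All 3 dbdb libraries lay below all 3 control libraries for 30 members and above them for 2, against 21.2% of all genes for either direction. The median log2 fold change was -0.13 over the members and -0.003 over all genes tested, and the fold change was negative for 63 of the 77. Under the scaling without mitochondrial transcripts the medians moved to 0.03 and 0.15, so that the median member was below the median gene by 0.12 under both scalings. The same number of members, 63, lay below the all-gene median either way.

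The counts depended on single libraries. Without control replicate 3, 5 members were called lower (Mrpl15, Mrpl18, Mrpl49, Mrpl50 and Mrps33) and 1 higher, and without dbdb replicate 3 the numbers were also 5 (with Mrps12 in place of Mrpl49) and 1. These 5 were 6.49% of the members, below the share of all genes called lower in the same fits, 9.66% without control replicate 3 and 11.03% without dbdb replicate 3. Leaving out control replicate 1 or control replicate 2 left 9 lower in each case (11.7%, against 10.3% and 10.7% of all genes), and leaving out dbdb replicate 2 left 10 (12.99% against 9.99%). The members' share was also below that of all genes under quantile normalization (11.7% against 12.5%), with the replicate number as a block (10.4% against 11.6%) and without mitochondrial transcripts (3.896% against 6.65%). It was thus above the background in 14 of the 19 alternatives tried and below it in 5. The 14 are not independent checks. Those with another pseudocount, another filter or fewer dbR libraries used the same dbdb and control FPKM of the members. The summed FPKM of the 77 was between 3208 and 3599 in control, 2946 and 3254 in dbdb and 2935 and 3309 in dbR libraries, while their share of all mRNA FPKM was 0.475% to 0.493%, 0.490% to 0.502% and 0.471% to 0.498%. Total mRNA FPKM was itself lower in the dbdb libraries, at most 647995, than in the control libraries, at least 675346. The scaling without mitochondrial transcripts divided the control libraries by 1.02 to 1.11 and the dbdb libraries by 0.921 to 0.977.

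Markers of cortical cell types also differed between the groups, and in bulk tissue fewer cells of a type and less RNA per cell cannot be told apart. Proximal tubule markers were present at a summed 2681 to 3008 FPKM in control, 2777 to 3402 in dbdb and 2996 to 3143 in dbR libraries. In dbdb vs. control, 2 of the 7 (28.6%) were called higher, while 4 of the 7 had a negative fold change. In dbR vs. control, 1 of the 7 (14.3%) was called higher and 3 had a negative fold change. Of all genes tested, 13.1% were higher and 13.4% lower in dbdb, and 12.3% higher and 11.8% lower in dbR vs. control. Collecting duct markers were at 92.1 to 112 FPKM in control, 137 to 226 in dbdb and 148 to 168 in dbR libraries (4 of 5 called higher in each db/db group, and Atp6v1g3 also in dbR vs. dbdb, where the other 4 had a negative fold change), and those of the thick ascending limb and distal tubule were at 469 to 577, 665 to 956 and 697 to 777.2 FPKM (2 of 4 higher in dbdb, 3 of 4 in dbR). Endothelial markers were at 90.01 to 98.7, 63.3 to 69.1 and 90.3 to 108 FPKM, with 4 of 4 lower in dbdb vs. control and 2 of 4 higher in dbR vs. dbdb, and leukocyte markers at 6.89 to 9.24, 2.88 to 3.85 and 4.72 to 5.11 FPKM, with 3 of the 4 tested lower in dbdb and 1 of 4 in dbR vs. control. Podocyte markers were at 73.4 to 83.8, 86.0 to 92.3 and 79.4 to 96.6 FPKM (2 of 5 higher in both db/db groups against control), and fibroblast and mesangial markers at 17.9 to 26.5, 16.9 to 23.8 and 27.2 to 36.4 FPKM (2 of 4 higher in dbR vs. control and 1 of 4 in dbR vs. dbdb). Fat cell markers were at 31.02 to 42.3, 21.9 to 32.9 and 43.2 to 46.4 FPKM, almost all from Fabp4, which was lower in dbdb vs. control and higher in dbR vs. dbdb, while Adipoq, Plin1, Lep and Retn were at most 0.515 FPKM in any library. Blood cell markers were at 7.79 to 104, 6.73 to 17.5 and 10.3 to 18.2 FPKM with no call. Adrenal cortex markers summed to at most 1.68 FPKM in any library, and 2 of the 5 were at 0 in all 9. Without mitochondrial transcripts, 5 of 5 collecting duct and 4 of 5 podocyte markers were higher in dbdb. So were 42.9% of the 7 proximal tubule markers and 50% of the 4 of the thick ascending limb and distal tubule, against 24.01% of all genes. Under that scaling 2 of 4 endothelial markers and 75% of the 4 leukocyte markers tested were lower, against 6.65% of all genes. The part of these differences in the results for the mitochondrial ribosomal protein genes was not tested.

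**Figure D2:**
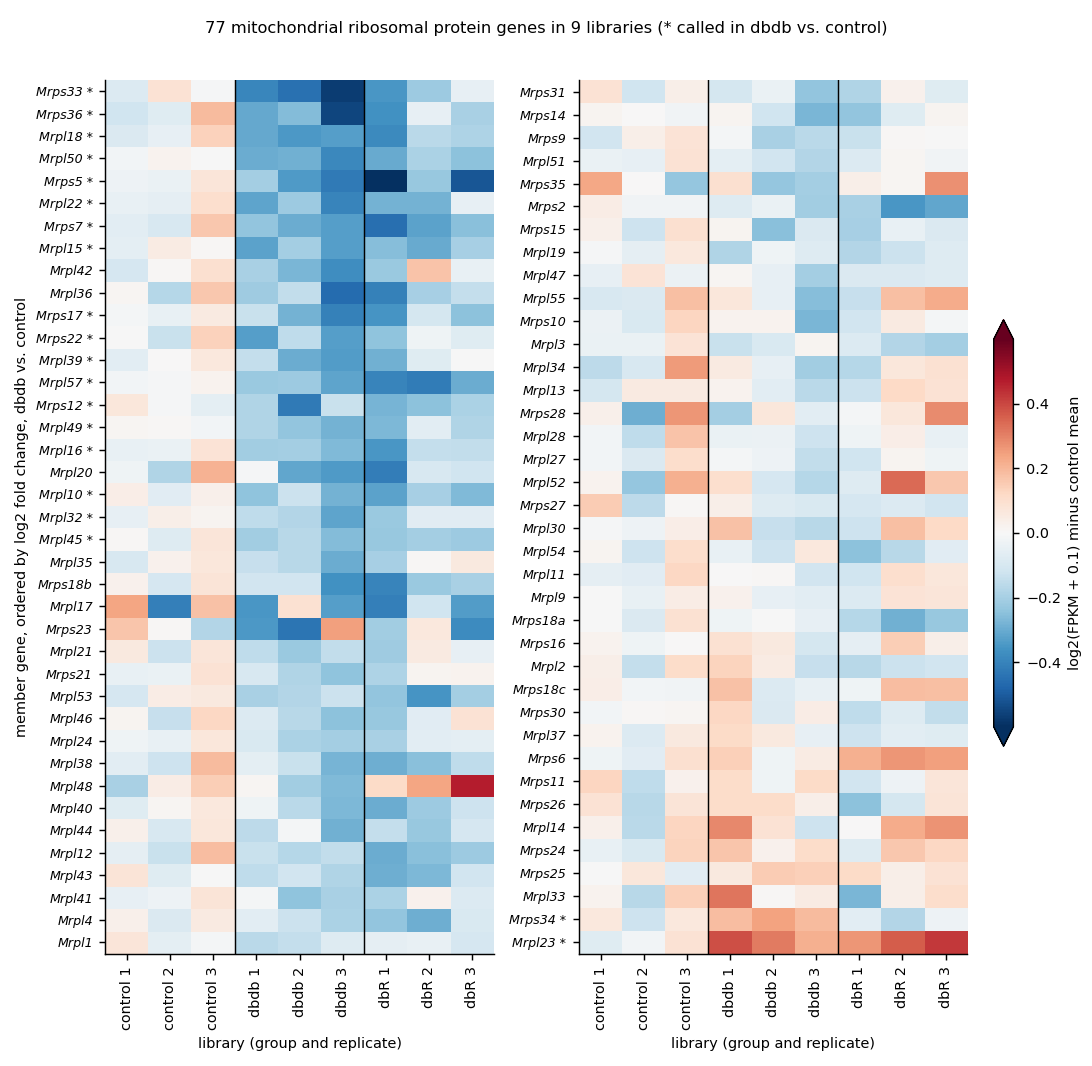
Level of each of the 77 genes (rows, ordered by the log2 fold change of dbdb vs. control, left panel first) in each of the 9 libraries (columns), as log2(FPKM + 0.1) minus the mean of the 3 control libraries, with an asterisk for the 20 genes called in dbdb vs. control. Blue, below the control mean, fills most dbdb and dbR cells of the left panel with FPKM as deposited, and control replicate 3 is mostly red; scaled without mitochondrial transcripts, the median over the members in dbdb vs. control turns positive (0.03).

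Of the small-subunit genes, Mrps33 (mS33), for a mitochondria-specific protein, fell furthest. It lies at chr6:39801804-39810988 (GRCm38, GENCODE) on the minus strand and had 49.5, 55.7 and 52.1 FPKM in control, 39.97, 38.4 and 35.2 in dbdb and 41.04, 45.1 and 50.6 in dbR libraries. The dbdb and control libraries did not overlap, and the dbR libraries lay between them, with the highest inside the control range. The log2 fold change of dbdb vs. control was -0.47 (SE 0.0845, adjusted p = 0.00323), a mean 27.8% lower, and the gene was called under all 19 alternatives. Its longest abundant transcript, of 1107 bases, held 70.1% of its FPKM and a shorter one of 500 bases most of the rest.

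The small subunit reads the mRNA. Of the 11 genes for its universal core, 4 were called lower (36.4%, against 13.4% of all genes), 9 had a negative log2 fold change and in 5 all dbdb libraries lay below all control libraries (45.5%, against 21.2% of all genes), with FPKM as deposited. Mrps5 (uS5), a protein by the channel through which mRNA enters, had 47.1, 46.96 and 50.6 FPKM in control, 41.9, 38.1 and 35.8 in dbdb and 31.8, 41.2 and 33.8 in dbR libraries. Mrps7 (uS7), in the head of the subunit, had 35.2, 34.3 and 41.1 FPKM in control, 31.1, 29.9 and 29.2 in dbdb and 26.8, 29.4 and 30.9 in dbR libraries. In both genes the lowest control library lay above the highest dbdb library. Mrps12 (uS12), which in bacteria sets the accuracy of decoding, had 50.1, 47.5 and 45.8 FPKM in control, 42.1, 35.6 and 43.4 in dbdb and 39.3, 40.2 and 41.8 in dbR libraries. Mrps17 (uS17), in the body of the subunit, had 46.7, 45.7 and 48.98 FPKM in control, 42.97, 38.7 and 35.6 in dbdb and 36.9, 43.7 and 39.8 in dbR libraries. These groups did not overlap either. The log2 fold changes of dbdb vs. control were -0.32 (SE 0.0961, adjusted p = 0.0329) for Mrps5, -0.29 (SE 0.0799, adjusted p = 0.0243) for Mrps7, -0.25 (SE 0.0776, adjusted p = 0.0408) for Mrps12 and -0.27 (SE 0.0824, adjusted p = 0.0345) for Mrps17. The call was lost in 13 of the 19 alternatives for Mrps12, 10 for Mrps17, 9 for Mrps5 and 4 for Mrps7, and none of the 4 was called without mitochondrial transcripts. Mrps5 rested for 71.9% of its FPKM on a transcript of 424 bases, and with the highest transcript alone neither Mrps5 nor Mrps17 was called. Mrps22 (mS22), a mitochondria-specific protein whose mutations cause mitochondrial disease in people, had 23.8, 21.8 and 26.2 FPKM in control, 18.9, 21.5 and 18.9 in dbdb and 20.1, 23.4 and 22.7 in dbR libraries. The groups did not overlap, with control replicate 2 just above dbdb replicate 2, and the log2 fold change of dbdb vs. control was -0.27 (SE 0.0885, adjusted p = 0.0465), a call lost in 12 of the 19 alternatives.

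The large subunit forms the peptide bond and guides the new chain through its exit tunnel. Mrpl50 (mL50), a mitochondria-specific protein at chr4:49512596-49521093, minus strand, had the smallest adjusted p of the 77. Its values were 54.6, 56.1 and 55.1 FPKM in control, 44.97, 45.2 and 42.2 in dbdb and 44.7, 48.4 and 46.5 in dbR libraries, with a control SD of 0.757 FPKM. No dbdb or dbR library reached the control range, and the log2 fold change of dbdb vs. control was -0.32 (SE 0.0531, adjusted p = 0.00193). Mrpl18 (uL18), a protein of the central protuberance, lies at chr17:12911349-12916345 on the minus strand, where Tcp1 overlaps it on the other strand. For 35 of the 77 a gene overlaps on the other strand, and whether fragments were counted by strand is not given in the sources used here. Mrpl18 had 53.7, 55.0 and 62.7 FPKM in control, 46.1, 44.9 and 45.3 in dbdb and 43.7, 50.98 and 50.04 in dbR libraries, and the log2 fold change was -0.33 (SE 0.0766, adjusted p = 0.0117). Together with Mrps33, these were the only members called lower in dbdb under all 19 alternatives.

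Mrpl22, Mrpl15 and Mrpl16 are universal genes of the large subunit that were lower in dbdb. Mrpl22 (uL22), which lines the exit tunnel, had 43.3, 43.0 and 47.96 FPKM in control, 35.9, 38.4 and 33.9 in dbdb and 36.8, 36.8 and 43.2 in dbR libraries. Mrpl15 (uL15) had 17.2, 18.6 and 18.04 FPKM in control, 14.3, 15.6 and 14.2 in dbdb and 14.99, 14.5 and 15.6 in dbR libraries. Mrpl16 (uL16), near the tRNA in the A site, had 35.7, 35.7 and 38.96 FPKM in control, 31.8, 31.9 and 30.6 in dbdb and 28.8, 33.3 and 33.1 in dbR libraries. In these 3 genes no dbdb library reached the control range, and the log2 fold changes of dbdb vs. control were -0.31 (SE 0.0808, adjusted p = 0.0185), -0.29 (SE 0.0623, adjusted p = 0.00823) and -0.23 (SE 0.0688, adjusted p = 0.0359). Mrpl15 was called in every alternative other than the scaling without mitochondrial transcripts. At the base of the stalk that recruits translation factors, Mrpl10 (uL10) had 37.4, 34.7 and 37.1 FPKM in control, 30.7, 33.2 and 29.9 in dbdb and 29.1, 31.6 and 30.2 in dbR libraries, with a log2 fold change of -0.22 (SE 0.0615, adjusted p = 0.0261). Mrpl45 (mL45), which ties the ribosome to the inner membrane beside the tunnel exit, had 16.04, 15.1 and 16.8 FPKM in control, 13.8, 14.2 and 13.3 in dbdb and 13.7, 13.9 and 13.7 in dbR libraries, with -0.21 (SE 0.0605, adjusted p = 0.02696). Both genes were lower in every dbdb library than in any control library, and both are among those with a printed NRF1 motif, as is Mrpl22. The call was lost in 9 of the 19 alternatives for Mrpl16, 8 for Mrpl10, 7 for Mrpl45 and 3 for Mrpl22.

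Another 4 genes of the large subunit were lower in dbdb without overlap between the groups. Mrpl57 (mL63) had 8.08, 8.13 and 8.305 FPKM in control, 6.997, 7.01 and 6.54 in dbdb and 6.19, 6.09 and 6.62 in dbR libraries and a log2 fold change of dbdb vs. control of -0.25 (SE 0.0682, adjusted p = 0.022). Mrpl39 (mL39) had 18.3, 19.1 and 19.97 FPKM in control, 17.3, 15.5 and 15.1 in dbdb and 15.6, 18.2 and 19.1 in dbR libraries, with -0.26 (SE 0.0856, adjusted p = 0.0489). The other two, Mrpl49 (mL49) and Mrpl32 (bL32), the only bacterial-type gene called in this comparison, had group means of 26.7 ± 0.3001 and 49.02 ± 1.505 FPKM in control against 22.7 ± 0.815 and 42.3 ± 2.55 FPKM in dbdb mice (SD, n = 3), with adjusted p of 0.0223 and 0.03698. The call was lost in 12 of the 19 alternatives for Mrpl39, 9 for Mrpl32, 5 for Mrpl49 and 4 for Mrpl57. Mrps36, the dehydrogenase component, had 78.03, 80.8 and 96.9 FPKM in control, 68.5, 70.9 and 57.8 in dbdb and 65.8, 82.1 and 74.1 in dbR libraries, and its log2 fold change of -0.37 (SE 0.111, adjusted p = 0.0329) was the second largest fall of the 77, with the call lost in 7 of the 19. GENCODE names pseudogenes after Mrps36, after Mrpl23 and after Mrpl48, and reads shared with them could change these values.

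Against this direction, Mrpl23 (uL23), the protein at the mouth of the exit tunnel, rose. It lies at chr7:142532686-142540747 on the plus strand and had 29.4, 30.5 and 32.8 FPKM in control, 40.4, 38.3 and 35.8 in dbdb and 37.1, 39.8 and 41.5 in dbR libraries. Every library of both db/db groups lay above every control library, and the log2 fold changes were 0.30 (SE 0.0691, adjusted p = 0.0101) in dbdb vs. control and 0.35 (SE 0.0691, adjusted p = 0.00527) in dbR vs. control. It was called higher under all 19 alternatives in both comparisons. Mrps34 (mS34), needed for a stable small subunit, had 42.5, 37.3 and 42.5 FPKM in control, 46.2, 48.1 and 46.4 in dbdb and 38.9, 36.1 and 39.9 in dbR libraries, so it was higher in dbdb than in either of the other groups. Its log2 fold change of dbdb vs. control was 0.20 (SE 0.0667, adjusted p = 0.04698), and the call was lost in 12 of the 19 alternatives. It overlaps Nme3 on the same strand, whose own levels had a log2 fold change of -0.17 (SE 0.102, adjusted p = 0.241).

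**Figure D3:**
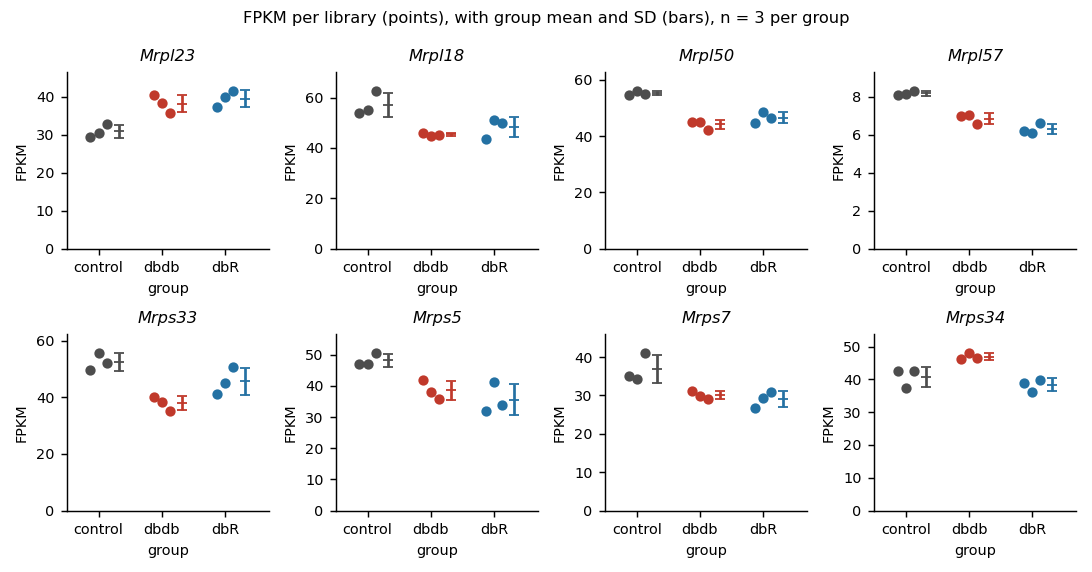
FPKM in each library (points, axis from 0) with group mean and SD (bars, n = 3 mice per group) of the 7 genes called under all 19 alternatives in dbdb vs. control (Mrpl18, Mrpl50 and Mrps33, lower), in dbR vs. control (Mrpl57, Mrps5 and Mrps7, lower) or in both (Mrpl23, higher), and of Mrps34, which is highest in dbdb. In dbdb vs. control the calls of Mrpl57, Mrps5 and Mrps7 were lost in 4, 9 and 4 of the 19.

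Among the large-subunit genes 11 of 50 were lower and 1 higher in dbdb, and among the small-subunit genes 6 of 26 were lower and 1 higher, with median log2 fold changes of -0.15 and -0.11, which turned to 0.008 and 0.05 when scaled without mitochondrial transcripts. By origin, 9 of 27 universal genes, 7 of 30 mitochondria-specific genes and 1 of 19 bacterial-type genes were lower, with medians of -0.12, -0.15 and -0.08 (0.03, 0.005 and 0.08 without mitochondrial transcripts). As shares these were 33.3%, 23.3% and 5.26%, so that with 13.4% of all genes called lower the bacterial-type genes were below the background, and the differences between the classes were not tested. Under the scaling without mitochondrial transcripts the shares called lower, in the same order, were 3.70%, 6.67% and 0%, against 6.65% of all genes. Without mitochondrial transcripts, 2 large-subunit genes were lower and 3 higher (6% higher), and 1 small-subunit gene was lower and 5 higher (19.2% higher), both below the 24.01% of all genes called higher under that scaling. The 5 bacterial-type genes of the small subunit had a median of 0.01 in dbdb vs. control, with none called lower, and of 0.12 in dbR vs. dbdb, where all 5 were positive and none was called (limma, 1 at an unadjusted p under 0.05), and 4 of the 5 were positive under quantile normalization and without mitochondrial transcripts. In dbdb vs. control, 40% of the 5 were called higher without mitochondrial transcripts, against 24.01% of all genes. In dbR vs. control, 20% were called higher as deposited, against 12.3% of all genes. Across the 77 genes the log2 fold change of dbdb vs. control had a Spearman rho of -0.007 with transcript length and of -0.02 with level, where all points share the same 6 libraries.

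**Figure D4:**
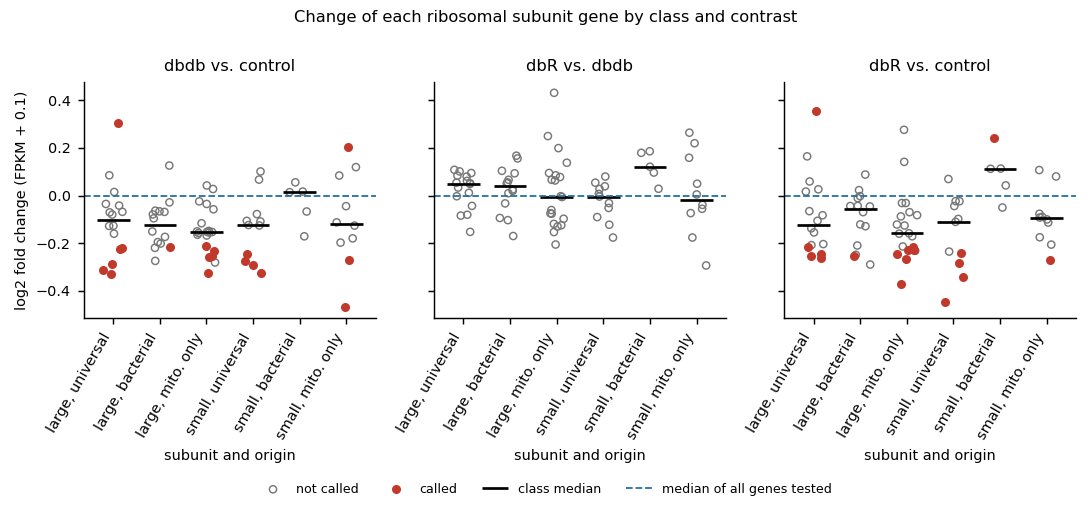
Log2 fold change of each of the 76 subunit genes (points, filled red when called) by subunit and origin in the 3 contrasts, with class medians (black bars) and the median of all genes tested (dashed line), from FPKM as deposited. In both contrasts against control most points lie below the dashed line and the small bacterial-type class does not, while in dbR vs. dbdb no point is filled; scaled without mitochondrial transcripts, the medians of the large and small subunit in dbdb vs. control turn positive (0.008 and 0.05).

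The second question was whether rosiglitazone moved these transcripts in db/db mice. None of the 77 was called in dbR vs. dbdb by limma, and 8 had an unadjusted p under 0.05 (10.4%, below the 17.5% of all genes), while of all genes tested 0.564% were called higher and 0.179% lower. The single call among all alternatives was Mrps34, lower under quantile normalization. The median log2 fold change was 0.03 over the members and -0.002 over all genes, and it turned to -0.03 for the members when scaled without mitochondrial transcripts, beside -0.06 over all genes. Single libraries also moved it: it was 0.08 without dbR replicate 1, 0.06 without dbdb replicate 1, 0.009 without dbR replicate 2, 0.01 without dbR replicate 3 and -0.008 without dbdb replicate 3. All 3 dbR libraries lay above all 3 dbdb libraries for 3 members and below them for 5, against 10.7% and 11.9% of all genes. The 3 were Mrps33, Mrpl48 and Mrps6, and the 5 were Mrpl12, Mrpl37, Mrpl53, Mrps18a and Mrps34, all named after their values were seen. Mrps34 had the smallest adjusted p, with a log2 fold change of -0.29 (SE 0.0667, adjusted p = 0.0718). Mrpl48 (mL48) had the largest positive value, 0.43 (SE 0.115, adjusted p = 0.103), from 35.2, 41.6 and 44.6 FPKM in control, 40.5, 34.8 and 33.5 in dbdb and 43.7, 47.5 and 55.8 in dbR libraries. Of the 77, the log2 fold change was negative for 31 in dbR vs. dbdb and 61 in dbR vs. control as deposited, and for 50 and 41 without mitochondrial transcripts.

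The third comparison set the treated db/db mice against the controls, and shares its control libraries with the first. With FPKM as deposited, 16 of the 77 were lower and 2 higher in dbR than in control mice, whereas 3 were lower (Mrpl57, Mrps5 and Mrps7) and 3 higher (Mrpl23, Mrpl48 and Mrps6) when scaled without mitochondrial transcripts. Of all genes tested, 11.8% were lower and 12.3% higher as deposited, 6.92% and 16.5% without mitochondrial transcripts and 9.19% and 15.2% with libraries scaled to the same 75th percentile, under which 9 members were lower and 2 higher. All 3 dbR libraries lay below all 3 control libraries for 28 members and above them for 2, against 21.1% and 20.8% of all genes. The median log2 fold change was -0.11 over the members and -0.001 over all genes as deposited, and -0.01 and 0.09 without mitochondrial transcripts. Without control replicate 3, 7 were lower (Mrpl10, Mrpl15, Mrpl50, Mrpl57, Mrps2, Mrps5 and Mrps7) and 2 higher, and 9 were lower without control replicate 1, without dbR replicate 1 or without dbR replicate 2. The members' share was 20.8% as deposited against the 11.8% of all genes, 9.09% against 8.27% without control replicate 3, and below that of all genes under quantile normalization (10.4% against 11.2%) and without mitochondrial transcripts (3.896% against 6.92%).

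The lower genes of this comparison included 10 that were also called lower in dbdb. Mrps5 had the largest fall, with a log2 fold change of dbR vs. control of -0.44 (SE 0.0961, adjusted p = 0.00846). Mrpl57 followed with -0.37 (SE 0.0682, adjusted p = 0.003797), then Mrps7 with -0.34 (SE 0.0799, adjusted p = 0.0125). These 3 were called lower under all 19 alternatives. Mrpl10, Mrpl15 and Mrpl50 had log2 fold changes of -0.26 (SE 0.0615, adjusted p = 0.0126), -0.25 (SE 0.0623, adjusted p = 0.01598) and -0.25 (SE 0.0531, adjusted p = 0.00832), and lost the call only when scaled without mitochondrial transcripts or, for Mrpl15, also without control replicate 2 or dbR replicate 2. Mrpl18, Mrps12, Mrpl45 and Mrpl16 were called with adjusted p of 0.0436, 0.0485, 0.0274 and 0.0468, each lost in at least 9 of the 19 alternatives.

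Another 6 genes were called lower in dbR vs. control and not in dbdb vs. control, and none of them was called between dbR and dbdb. All 6 lost the call without mitochondrial transcripts, and over the 19 alternatives it was lost 13 times for Mrps18b, 9 times each for Mrpl12 and Mrpl43, 6 times for Mrps18a, 4 times for Mrpl53 and once for Mrps2. Mrps2 (uS2), a universal protein of the small subunit, had 21.7, 20.7 and 20.7 FPKM in control, 19.97, 20.5 and 18.2 in dbdb and 18.4, 16.5 and 16.9 in dbR libraries, with a log2 fold change of dbR vs. control of -0.28 (SE 0.0668, adjusted p = 0.0126). Mrpl12 (bL12), the stalk protein that contacts translation factors and has also been found on the mitochondrial RNA polymerase, had 112, 106 and 132 FPKM in control, 106, 103 and 105 in dbdb and 94.6, 97.7 and 99.98 in dbR libraries. Every dbR library lay below every dbdb library, and the highest dbdb library (105.8 FPKM) was just below the lowest control library (105.9 FPKM), with -0.25 (SE 0.0773, adjusted p = 0.0386) in dbR vs. control. Mrps18a (mL66), one of 3 mammalian versions of a bacterial protein, had 53.1, 50.1 and 56.6 FPKM in control, 52.3, 53.2 and 51.4 in dbdb and 47.3, 43.5 and 45.4 in dbR libraries. Here control and dbdb overlapped (-0.02 on the log2 scale) and dbR lay below both, with -0.23 (SE 0.0594, adjusted p = 0.0196) against control and -0.21 (SE 0.0594, adjusted p = 0.124) against dbdb. Its relative Mrps18b (mS40) had 42.6, 38.9 and 44.1 FPKM in control, 38.6, 38.6 and 32.5 in dbdb and 31.8, 35.8 and 36.5 in dbR libraries, with -0.27 (SE 0.0864, adjusted p = 0.04598) in dbR vs. control. Mrpl53 (mL53), which overlaps the predicted gene Gm42688 on the same strand, had 35.8, 39.6 and 39.95 FPKM in control, 33.5, 33.97 and 35.1 in dbdb and 32.6, 30.03 and 33.3 in dbR libraries, with -0.26 (SE 0.0637, adjusted p = 0.0142). The sixth was Mrpl43 (mL43), with means of 25.2 ± 1.31 FPKM in control and 21.6 ± 1.498 FPKM in dbR mice (SD, n = 3; adjusted p = 0.0328). Mrps30 (mL65), the other large-subunit protein with a small-subunit name, was not called in any comparison and had 14.4, 14.6 and 14.7 FPKM in control, 15.8, 13.7 and 15.02 in dbdb and 13.1, 13.8 and 13.1 in dbR libraries. The genes called higher in dbR were Mrpl23 and Mrps6 (bS6), which had 37.6, 36.5 and 40.96 FPKM in control, 42.3, 37.6 and 39.6 in dbdb and 44.4, 46.01 and 45.5 in dbR libraries and a log2 fold change of 0.24 (SE 0.0634, adjusted p = 0.0213) in dbR vs. control. Mrps6 shares its strand and locus with Slc5a3, a transporter of inositol, which had -0.12 (SE 0.07, adjusted p = 0.235). In all, 27 of the 77 genes were called in at least 1 comparison and 50 in none.

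**Figure D5:**
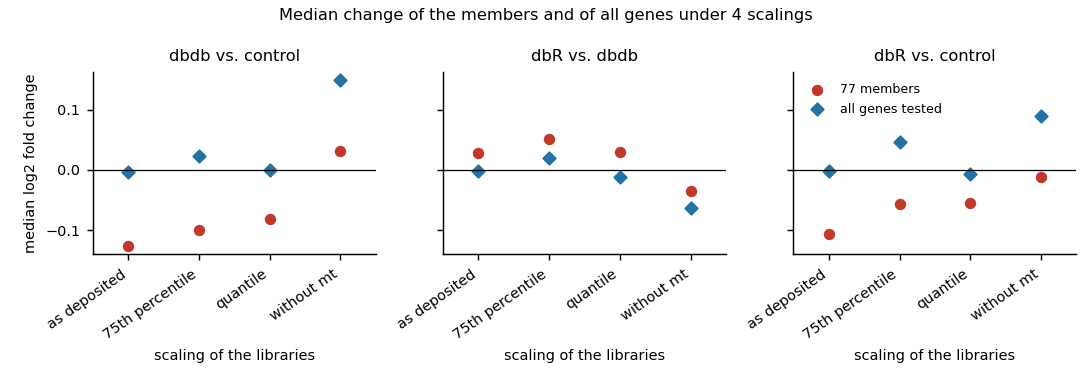
Median log2 fold change of the 77 members (circles) and of all genes tested (diamonds) in the 3 contrasts under 4 scalings of the libraries. The medians of the members in dbdb vs. control are negative as deposited (-0.13) and positive when scaled without mitochondrial transcripts (0.03), and in all 4 scalings they lie below those of all genes in dbdb vs. control and dbR vs. control.

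Other genes of mitochondrial protein synthesis were counted from lists of known members, with FPKM as deposited and then scaled without mitochondrial transcripts. Beside the 13.4% of all genes called lower in dbdb as deposited, the share was 7.41% for assembly and rRNA modification, 15.0% for the synthetases, 16.7% for transcription and genome copying, 20.0% for translation factors and 33.3% for the 6 mitoribosome proteins with other symbols, so that assembly lay below the background and the synthetases and transcription close to it. Without mitochondrial transcripts, the background was 24.01% higher and 6.65% lower in dbdb and 16.5% higher and 6.92% lower in dbR vs. control. Of the 6 mitoribosome proteins with other symbols, Ict1 (mL62), which frees stalled chains, and Ptcd3 (mS39), which binds mRNA, were lower in dbdb mice, with log2 fold changes of -0.19 (SE 0.0569, adjusted p = 0.0369) and -0.20 (SE 0.0668, adjusted p = 0.0479), and Chchd1 (mS37) was higher in dbR than in control mice, with 0.28 (SE 0.0856, adjusted p = 0.0399). Without mitochondrial transcripts neither Ict1 nor Ptcd3 was called, and Chchd1 and Dap3 (mS29) were higher in both comparisons. Of 15 translation factors and activators, 3 were lower in dbdb and 14 had a negative fold change, with a median of -0.21, against 2 lower (Gfm2 and Mrrf), 9 negative and a median of -0.05 without mitochondrial transcripts. Gfm2, which splits the ribosome for recycling, had 30.1, 28.2 and 29.4 FPKM in control, 22.5, 22.1 and 20.3 in dbdb and 20.3, 21.04 and 20.02 in dbR libraries. Mrrf, its partner in recycling, had 11.8, 11.9 and 12.2 FPKM in control, 9.38, 8.71 and 9.02 in dbdb and 9.54, 10.2 and 9.78 in dbR libraries. Neither gene overlapped between the control group and either db/db group, with log2 fold changes of dbdb vs. control of -0.43 (SE 0.0597, adjusted p = 0.000745) and -0.40 (SE 0.0616, adjusted p = 0.00131), and Taco1, an activator of the synthesis of cytochrome c oxidase subunit 1, had -0.21 (SE 0.0594, adjusted p = 0.0255). In dbR vs. control, where 11.8% of all genes were lower, 6 of the 15 (40.0%) were lower, these 3 and the elongation factors Gfm1 (-0.31) and Tsfm (-0.24) and the formyltransferase Mtfmt (-0.34), against 2 (Gfm1 and Gfm2) without mitochondrial transcripts.

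Of 20 mitochondrial aminoacyl-tRNA synthetases and related enzymes, those lower in dbdb included Rars2, for arginine, with -0.52 (SE 0.0718, adjusted p = 0.000785), and Gatb, a subunit of the amidotransferase that makes glutaminyl-tRNA, with -0.37 (SE 0.0749, adjusted p = 0.005901). In dbR vs. control Rars2, Iars2 and Yars2 were lower (15.0%, against 11.8% of all genes), and without mitochondrial transcripts Rars2 alone was lower in either comparison and Nars2 was higher in dbdb. Of 27 genes of mitoribosome assembly and rRNA modification, 2 were lower in dbdb, the GTPase Mtg2 (log2 fold change -0.30, SE 0.0759, adjusted p = 0.0173) and Fastkd2 (log2 fold change -0.33, SE 0.0859, adjusted p = 0.01996), and these with Mterf3 in dbR vs. control (11.1%, against 11.8% of all genes). Without mitochondrial transcripts these 3 were again lower in dbR and Mettl15 was higher, but none of the 27 was lower in dbdb and 5 were higher (C1qbp, Ddx28, Mpv17l2, Mrm1 and Rpusd3), 18.5% against 24.01% of all genes. Of 12 genes of mitochondrial transcription and genome copying, the initiation factor Tfb2m (log2 fold change -0.20, SE 0.0542, adjusted p = 0.0217) and the termination factor Mterf1a (log2 fold change -0.48, SE 0.118, adjusted p = 0.0147) were lower in dbdb and none was called in dbR vs. control (limma, smallest adjusted p 0.0654, 4 at an unadjusted p under 0.05, 33.3% against 36.8% of all genes), whereas without mitochondrial transcripts Polg2 was higher in both comparisons and no gene lower. The 13 mRNAs of the mitochondrial genome, which the mitoribosome translates, all had a negative fold change in dbdb vs. control as deposited. Their median was -0.17, with no call by limma (none at an unadjusted p under 0.05). When scaled without mitochondrial transcripts, 7 of the 13 were negative, with a median of -0.02 and no call. Under quantile normalization 4 of the 13 (30.8%) were called higher, against 13.1% of all genes. As deposited, the smallest p was that of mt-Nd4, with -0.26 (SE 0.158, adjusted p = 0.247), followed by mt-Co2, with -0.24 (SE 0.168, adjusted p = 0.318). No gene of these lists was called in dbR vs. dbdb by limma, where the smallest adjusted p was 0.0968 for Tsfm. The share of a list with an unadjusted p under 0.05 ran from 0% to 16.7%, against 17.5% of all genes. Among the 9 regulators described next this share was 22.2%.

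GABP, whose ETS motif was among those counted in the promoters, is made of the products of Gabpa and Gabpb1. Of 9 regulators of mitochondrial genes, 2 were lower in dbdb (22.2%, against 13.4% of all genes) and as many were higher (against 13.1%). Gabpa and Gabpb1 were the lower ones, in dbdb and in dbR. Gabpa had 19.6, 21.2 and 21.9 FPKM in control, 16.6, 17.4 and 16.5 in dbdb and 15.6, 16.98 and 16.4 in dbR libraries. Gabpb1 had 6.91, 6.19 and 8.16 FPKM in control, 5.63, 5.49 and 5.61 in dbdb and 4.98, 5.11 and 5.46 in dbR libraries. Without mitochondrial transcripts, both were again called lower in dbR and neither in dbdb, where Esrra, Myc and Yy1, which encodes YY1, were called higher (3 of 9, 33.3% against 24.01% of all genes). As deposited, both db/db groups lay below the control group for both genes, with log2 fold changes of dbdb vs. control of -0.31 (SE 0.0635, adjusted p = 0.00619) and -0.33 (SE 0.0999, adjusted p = 0.0346), and of dbR vs. control of -0.36 (SE 0.0635, adjusted p = 0.00327) and -0.44 (SE 0.0999, adjusted p = 0.0112). Esrra, an orphan nuclear receptor active in oxidative tissues, was higher in dbdb (log2 fold change 0.31, SE 0.0723, adjusted p = 0.0113), and Myc was higher in dbdb (log2 fold change 0.77, SE 0.181, adjusted p = 0.0124) and in dbR vs. control (log2 fold change 0.76, SE 0.181, adjusted p = 0.0132).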

How the data were processed

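Per the labels and the study's methods, TRIzol total RNA of renal cortex was depleted of rRNA, sequenced as directional libraries, aligned to GRCm38.p2 with TopHat2 2.0.9 and quantified with Cufflinks 2.1.1; the authors deposited FPKM per transcript, without counts. lncRNA values were not used here. FPKM were summed per gene, and log2(FPKM + 0.1) of genes with a mean of at least 0.1 FPKM was fitted with limma 3.58.1 (trend, R 4.3.3) in 1 model of 3 groups of 3 mice, with two-sided tests and Benjamini-Hochberg adjustment over all 14537 genes tested per contrast; genes with an adjusted p under 0.05 were called. The pseudocount makes fold changes of low genes appear smaller. The code was tested on simulated data. Tables and figures were made in Python 3.11.15 with pandas 2.3.3, numpy 2.4.6 and matplotlib 3.10.9. Members and lists were chosen with earlier results of these data known. Named with values in every library were the 12 called members with the largest change per contrast, the 3 highest and 3 lowest, and Mrpl12, Mrps12, Mrps30, Mrps18a and Mrps36; further members were named after their values were seen. The result of 1 listed gene is not reported here. Estimated fragments rest on FPKM steps and cover counting error only.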

Additional observations from a re-analysis of the deposited data

How the results depend on the processing

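The 3 contrasts were refitted under 19 alternatives: 10 of scaling, filter, pseudocount, transcript choice, libraries fitted and replicate block, and 9 that left out 1 library each. In dbdb vs. control, members called higher numbered 1 with the highest transcript per gene, without a filter and with only the 6 libraries of the comparison. Quantile normalization left 9 lower (11.7%, against 12.5% of all genes), and scaling without mitochondrial transcripts gave 8 higher, 3 lower and a median log2 fold change of 0.03. Leaving out 1 library gave 1 to 2 higher, 5 to 18 lower and medians from -0.16 to -0.10. In dbR vs. dbdb, quantile normalization gave 1 lower; leaving out 1 library gave 0 higher and 0 lower with medians from -0.008 to 0.079. In dbR vs. control, 9 were lower after 75th percentile scaling, 8 after quantile normalization (10.4%, against 11.2% of all genes) and 3 without mitochondrial transcripts, where the median was -0.0113; leaving out 1 library gave 1 to 2 higher, 7 to 15 lower and medians from -0.14 to -0.07. The cause of these shifts was not tested. Same-numbered libraries share only a number (correlations of their deviations from the group means between -0.175 and 0.062). With the replicate number as a block, dbdb vs. control had 1 higher and 8 lower (10.4%, against 11.6% of all genes), dbR vs. control 2 higher and 10 lower and dbR vs. dbdb 0 and 0.

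Among the log2 fold changes of the 26 members chosen by the naming rule given above, 33 values reversed and all of these belonged to genes that were not called in that contrast. Members named after their values were seen are not in this count. Without mitochondrial transcripts, the values in dbdb vs. control were 0.00761 for Mrpl12, 0.059 for Mrpl19, 0.101 for Mrpl52, 0.134 for Mrps18a and 0.0489 for Mrps2, those in dbR vs. dbdb -0.0297 for Mrpl15, -0.015 for Mrpl23, -0.0564 for Mrps12 and -0.0246 for Mrps17, and those in dbR vs. control 0.0481 for Mrpl35, 0.0634 for Mrpl42 and 0.0446 for Mrps21. Quantile normalization gave 0.0515 for Mrpl52 and 0.048 for Mrps18a in dbdb vs. control, -0.0112 for Mrps12 in dbR vs. dbdb and 0.0345 for Mrpl42 in dbR vs. control. The 75th percentile gave 0.00173 for Mrps18a in dbdb vs. control and 0.00345 for Mrpl35 and 0.0182 for Mrpl42 in dbR vs. control. When 1 library was left out, the values in dbdb vs. control ran from -0.174 to 0.0479 for Mrpl52, from -0.0672 to 0.0203 for Mrps18a and from -0.0201 to 0.084 for Mrps30. In dbR vs. dbdb they ran from -0.0748 to 0.00047 for Mrpl10, from -0.0761 to 0.0018 for Mrpl19, from -0.0817 to 0.0623 for Mrps12, from -0.0263 to 0.109 for Mrps17 and from -0.0972 to 0.00342 for Mrps7. In dbR vs. control they ran from -0.0968 to 0.0308 for Mrpl35, from -0.133 to 0.0642 for Mrpl42 and from -0.0856 to 0.0179 for Mrps21. Of the other values of these 26 members, 1292 kept their direction and side of the threshold, 147 lost a call and 10 gained one.

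With 3 mice per group and FPKM without counts, a p that missed the threshold does not show equal levels. FPKM are scaled to the mapped fragments of a library, and their sum differed between the groups. The members' direction against control as deposited is thus relative to mapped fragments, not to that sum. As a share of the summed mRNA FPKM, the members made up 0.475% to 0.493% in control and 0.490% to 0.502% in dbdb libraries.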
